A study of Mus musculus with 12 samples.

Results

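The genes described here are the F-box proteins and cullins of mouse oocytes, the parts from which cullin-RING ubiquitin ligases are built. They were chosen by gene symbol: every name starting with Fbxl, Fbxo or Fbxw and a number, or with Cul and a number, together with Skp1a, Skp2 and Rbx1, and without Fbxo5. The rule found 88 genes among the 24259 of the expression table. In these ligases a cullin is a rigid scaffold that holds a RING protein, which recruits the ubiquitin-conjugating enzyme, at one end and a substrate receptor at the other. On Cul1 the receptor is an F-box protein attached through the adaptor Skp1, and the many F-box proteins give the ligase its choice of substrates, among them cyclins and inhibitors of the cell cycle. Oocytes are known for F-box proteins that govern the meiotic arrest, and the mouse genome carries an expanded row of Fbxw genes on chromosome 9 whose transcripts are known from oocytes.

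The study compared RNA on and off polysomes in oocytes with and without Lsm14b, a protein of ribonucleoprotein (RNP) granules that store mRNA. Germinal vesicle (GV) stage oocytes, arrested in the first meiotic prophase, came from wild-type (WT) and Lsm14b-KO mice aged 3 weeks on the C57BL/6J background, 46 h after 5 IU of PMSG, a gonadotropin that drives follicles to grow. The KO mice were homozygous for the tm1a(KOMP)Mbp allele, an insertion that carries a reporter. About 1500 oocytes pooled from animals were lysed for a gradient, with cycloheximide to hold ribosomes in place. Each lysate was spun through sucrose into 28 fractions. Fractions 1 to 10 were joined as the RNP pool (free mRNA particles and single ribosomes), and fractions 11 to 28 as the polysome pool (mRNA with several ribosomes). There were 3 libraries for each pool and genotype and 12 in all, amplified by Smart-seq2 and read as 150 bp pairs. The sources used here differ on the top sucrose concentration (55% or 50%). Nothing in the labels says that replicates came from separate animals, so the p-values measure the spread between libraries, which may be technical.

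Levels are in FPKM, fragments per length of transcript and per mapped total, which can be compared between genes. FPKM is set within each library, so a difference between pools or between genotypes is relative to the other genes of the library. Higher, lower, rise and fall are meant in this sense. A gene was tested where at least 3 libraries of a comparison had 1 FPKM or more. A gene is called higher or lower where limma's adjusted p, over all genes tested, was under 0.05, and log2 changes are on the log2(FPKM + 1) scale, which understates changes of low genes. Read totals are not used here. The steps between low values put the depth of the libraries between 0.669 (KO polysome replicate 3) and 1.07 (WT polysome replicate 3) times that of WT RNP replicate 1.

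One library stood apart. In KO polysome replicate 2 the gene Mir300 took 24.5% of the library's summed FPKM of 698228, whereas the top gene of the 11 others took between 3.13% and 4.76%. The summed FPKM of the 88 members was nonetheless 7113 there, beside 6888 and 7120.2 in the other KO polysome libraries. Counts of members called between KO and WT polysomes are given with and without it, and named calls that ended without it are stated.

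The deleted gene checked the labels. Lsm14b stood at 34.6, 29.3 and 27.4 FPKM in the WT RNP libraries and at 0.893, 0.0627 and 0 in the KO RNP libraries. In the polysome pool it stood at 11.3, 15.3 and 13.2 in WT and 0.260, 0 and 0.0876 in KO. Every KO library was thus below every WT library. Markers of the oocyte were present in all libraries: the 10 listed genes summed to between 4605 and 23898 FPKM, led by the growth factor Gdf9. Markers of the surrounding granulosa and cumulus cells summed to 35.3, 31.3 and 34.8 in WT RNP, 64.7, 60.8 and 42.8 in KO RNP, 75.5, 27.4 and 43.8 in WT polysome and 83.1, 86.2 and 103 in KO polysome libraries, so they were far lower than the oocyte markers and reached their highest sums in KO. In polysomes this rested on Inha: without it the sums were 65.9, 27.4 and 35.7 in WT and 31.7, 46.8 and 63.7 in KO, which overlap. In the RNP pool the sums without Inha did not overlap, at 35.3, 31.0 and 34.8 in WT and 53.7, 54.8 and 39.0 in KO. There Fshr also lay apart (4.12, 5.62 and 5.33 against 13.6, 9.77 and 7.57, limma's adjusted p = 0.0704). Their most abundant gene was Cyp19a1 (mean of 12 libraries 28.9), at 62.0, 19.0 and 32.0 in WT and 14.6, 23.5 and 34.5 in KO polysomes, which was not called (log2 change -0.54, adjusted p = 0.495), and the defining marker Foxl2 was listed at 0 in every library but KO RNP replicate 2 (1.01). Of the 10 genes, 3 of 7 tested were called higher in KO polysomes (Fshr, Inha and Inhba), and 1 of 4 tested in the KO RNP pool (Inha), with medians of 1.13 and 0.63, where 5.64% and 10.5% of all genes tested were called higher. Fshr and Inhba passed the polysome filter through the 3 KO libraries alone. The Fshr call ended without WT polysome replicate 1 or 2 (adjusted p 0.0502 to 0.0505) and with no filter. The polysome count was 0 without KO polysome replicate 1, 2 or 3, and the RNP count 0 without KO RNP replicate 1, 2 or 3. Fshr and Inhba in polysomes, and Inha in the RNP pool, were at 1 FPKM in too few libraries for a test once a KO library was left out. Their part in the results below was not tested. In pools of RNA such as these, fewer cells of a type and less RNA per cell cannot be told apart. Markers of theca and stroma were near 0, with no mean above 0.470, and Ptprc, Adgre1, Hbb-b1 and Hba-a1, which mark blood cells, were listed at 0 in all 12 libraries. Of the endothelial and blood list, Pecam1, an adhesion molecule of endothelium, had a mean of 25.0 FPKM. Cdh5, also an endothelial marker, was listed at 0 in every library but KO RNP replicate 2 (0.0384). Limma called 0 of the 2 genes of that list tested in either pool (0 in polysomes and 0 in RNP at an unadjusted p under 0.05), and 0 of the 1 theca and stroma gene tested in polysomes (0 at an unadjusted p under 0.05). Of the blood and endothelial genes in the RNP pool, the count was 1 without WT RNP replicate 1.

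The members covered a wide range of levels. Of the 88, 70 had a mean of 1 FPKM or more over the 12 libraries, 51 of 10 or more and 12 of 100 or more. By contrast, 10 were below 1 FPKM in every library, and 5 of these (Fbxo4, Fbxo24, Fbxo48, Fbxl16 and the antisense gene Fbxl12os) were listed at 0 in all 12. A set of 17 was too low for any test, among them the muscle F-box gene Fbxo32 and the cullins Cul7 and Cul9. The adaptor Skp1a led with a mean of 1387 FPKM, followed by Fbxo34 (505). Of the 10 highest members, 6 belonged to the oocyte Fbxw cluster (Fbxw24, Fbxw28, Fbxw14, Fbxw26, Fbxw15 and Fbxw21), and the others were Cul1, Fbxo30, Skp1a and Fbxo34. Together the 13 cluster genes held between 16.6% and 18.5% of the members' summed FPKM in WT RNP libraries, and between 31.9% and 33.8% in KO polysome libraries. Skp1a alone held between 12.7% and 17.01% and between 38.1% and 39.2% in the same libraries.

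KO and WT were first compared within each pool, which asks how the loss of Lsm14b went with the share of each mRNA in that pool. Amounts per oocyte were not measured. In the RNP pool 21 of 69 members tested were called (30.4%), against 20.7% of all genes tested. There were 16 higher (10.5% of all genes were called higher) and 5 lower (10.2%). In the polysome pool 17 of 69 were called (24.6%), against 10.4% of all genes. There were 15 higher (5.64% of all genes) and 2 lower (4.73%). Most of the members called higher were genes of the Fbxw cluster. Outside the cluster, 8 of 56 members were called in each pool (14.3%): 3 higher and 5 lower in the RNP pool, and 6 higher and 2 lower in the polysome pool. The median log2 change of all members tested was 0.28 for RNP and 0.50 for polysomes, beside 0.05 and 0.10 over all genes tested. The polysome count rested in part on single libraries: without KO polysome replicate 2 it was 11 members, and 398 of all genes in place of 989, and without replicate 3 it was 10 members and 383 genes. Without KO polysome replicate 1, 522 of all genes were called. In the RNP pool, leaving out KO replicate 1, 2 or 3 left 17 members each time and 1255, 1259 or 1298 of all genes, in place of 2057.

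The Fbxw cluster is a row of genes with an F-box and WD repeats whose substrates are not established here. RefSeq (GRCm38.p6) places the 13 members side by side on the minus strand of chromosome 9, within 651 kb at chr9:109139454-109790660. That span holds 15 protein-coding genes, all named Fbxw, of which Fbxw23 and Fbxw25 have no row in the expression table. Fbxw17, which is also an Fbxw gene, does not lie in it. The genes are copies of each other: the coding transcripts of the 13 were between 68.4% and 92.2% identical in 78 pairs, with a median of 83.0%.

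Sequence around the start sites was shared as well. RefSeq promoters, from 250 bases before to 50 bases after a start site, were found for 65 of the 88 members and for 10 of the 13 cluster genes, and not for Fbxw13, Fbxw22 and Fbxw27. For Fbxw14 and Fbxw19 the start site used lies inside the gene, and for the other cluster genes it is the start of the gene. The 10 promoters were between 83.4% and 97.3% identical in 45 pairs, with a median of 90.9%, and Fbxw14 and Fbxw28 were the closest pair. The promoters of 4 genes are shown because the genes differ in the measurements given further on: Fbxw24 had the highest mean of the cluster, Fbxw21 the largest rise in the KO RNP pool, Fbxw19 the largest WT difference between pools, and Fbxw26 almost none. All are on the minus strand, at chr9:109626010-109626309 (Fbxw24), chr9:109161973-109162272 (Fbxw21), chr9:109495805-109496104 (Fbxw19) and chr9:109746040-109746339 (Fbxw26), and capitals mark 2 stretches of 12 bases that all 10 promoters hold. The first begins 47, 46, 71 and 45 bases before the start site used, in the same order of genes. The second begins 14, 16 and 17 bases after it in Fbxw24, Fbxw21 and Fbxw26, so there it is not upstream. In Fbxw19, whose start site used lies inside the gene, it begins at -10.
Fbxw24: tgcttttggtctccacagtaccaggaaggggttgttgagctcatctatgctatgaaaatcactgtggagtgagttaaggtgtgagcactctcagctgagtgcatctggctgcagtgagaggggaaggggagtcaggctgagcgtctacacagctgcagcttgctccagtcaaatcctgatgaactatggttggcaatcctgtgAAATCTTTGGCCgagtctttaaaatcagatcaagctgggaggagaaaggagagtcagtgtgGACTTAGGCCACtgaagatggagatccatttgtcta
Fbxw21: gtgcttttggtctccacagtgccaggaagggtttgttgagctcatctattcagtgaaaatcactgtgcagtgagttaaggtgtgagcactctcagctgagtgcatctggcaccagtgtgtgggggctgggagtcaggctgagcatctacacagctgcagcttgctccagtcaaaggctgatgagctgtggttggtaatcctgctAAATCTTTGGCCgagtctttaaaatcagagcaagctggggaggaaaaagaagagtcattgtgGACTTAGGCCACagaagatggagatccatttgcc
Fbxw19: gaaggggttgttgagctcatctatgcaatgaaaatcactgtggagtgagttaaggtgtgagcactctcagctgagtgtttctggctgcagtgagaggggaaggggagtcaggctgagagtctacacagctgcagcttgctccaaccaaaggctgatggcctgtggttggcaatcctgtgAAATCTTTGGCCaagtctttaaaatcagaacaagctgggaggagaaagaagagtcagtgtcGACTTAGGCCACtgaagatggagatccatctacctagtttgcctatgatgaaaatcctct
Fbxw26: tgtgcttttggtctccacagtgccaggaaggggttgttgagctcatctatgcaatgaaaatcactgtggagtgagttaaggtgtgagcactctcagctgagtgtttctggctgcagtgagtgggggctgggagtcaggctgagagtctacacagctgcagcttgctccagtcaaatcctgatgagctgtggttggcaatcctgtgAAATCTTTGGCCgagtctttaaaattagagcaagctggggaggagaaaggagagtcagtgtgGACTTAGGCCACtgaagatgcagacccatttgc

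The 2 stretches were picked as the longest that all 10 cluster promoters hold, so their presence in all 10 was set by that choice. Any stretch of 12 bases is rare among promoters. Of the 32851 promoters in the RefSeq table, 13 (0.0396%) held the stretch AAATCTTTGGCC on either strand, and 12 (0.0365%) held GACTTAGGCCAC. The second was found in no gene outside the cluster, where Fbxw25 had it too, and the first in 2 others, Olfr829 and Gm40505. Known short motifs were searched on both strands. The E-box CANNTG was in 10 of 10 cluster promoters, beside 72.3% of all promoters. The TATA box TATAAA was in 0 of 10 (13.6% of all), CCAAT in 1 (37.4%), and the GC box GGGCGG in 1 (35.7%). TAATTG and TAATTA, core sites of the oocyte homeobox factor NOBOX, were in 0 of 10, beside 8.0% and 5.29% of all promoters. The 10 promoters are near copies, so these counts are not 10 separate observations to set against the shares of all promoters. They are matches of letters in one window and say nothing of binding.

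All 13 cluster genes were higher in KO than in WT, in both pools and without overlap between the 3 KO and the 3 WT libraries. Over all genes tested, 20.7% were higher in KO without overlap among RNP and 18.2% among polysome libraries. The summed FPKM of the cluster was 571, 515 and 521 in WT RNP and 999.6, 1005 and 955 in KO RNP libraries. In the polysome pool it was 1367, 1274 and 1344 in WT and 2330.5, 2269 and 2300.3 in KO. The 4 groups lie apart, with WT RNP lowest, KO RNP next, then WT polysome and KO polysome highest, and the spread within each was small. The ratio of the KO to the WT mean was 1.84 for RNP and 1.73 for polysomes.

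**Figure D1:**
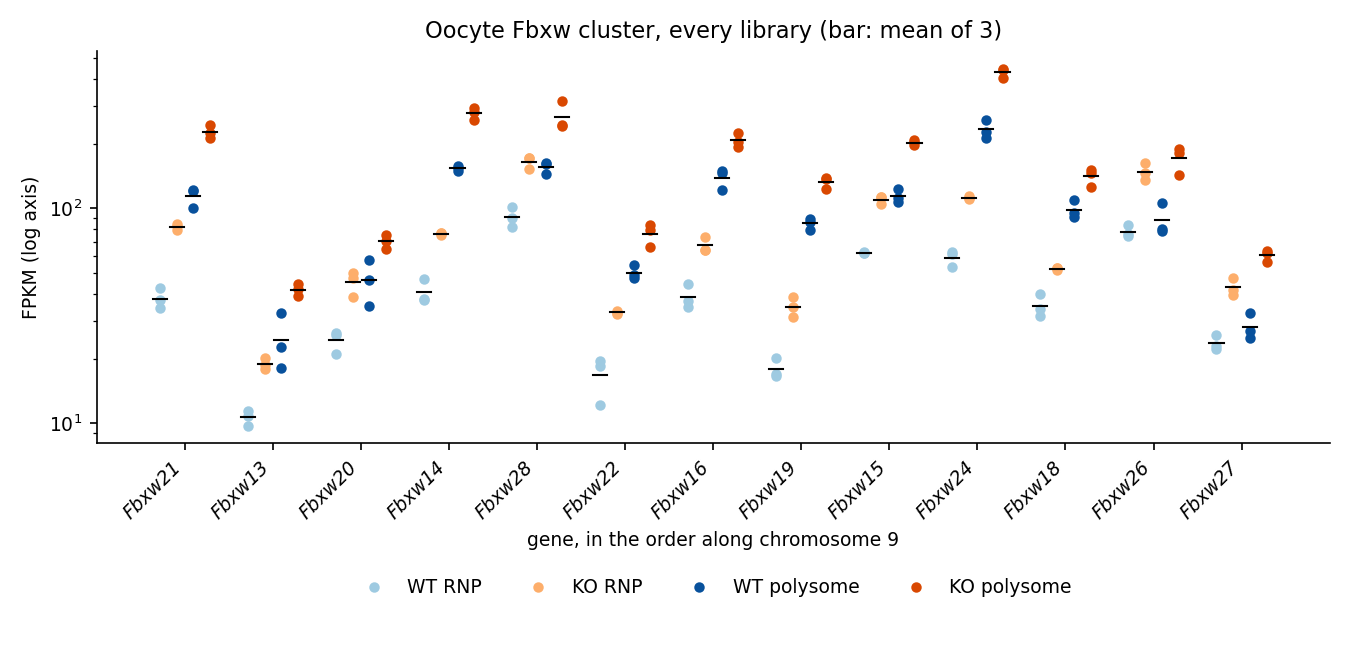
FPKM (log axis) of the 13 genes of the oocyte Fbxw cluster in the 12 libraries, ordered along chromosome 9; points are libraries and bars are means of 3. In every gene the KO points lie above the WT points of the same pool, and for Fbxw26 the pools of 1 genotype lie close together.

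The highest of them, Fbxw24, measured 60.9, 53.1 and 62.5 FPKM in WT RNP, 114, 112 and 109.9 in KO RNP, 258, 227 and 213 in WT polysome and 402, 438 and 446 in KO polysome libraries. Its KO libraries were all well above its WT libraries, by 1.90 times in the RNP pool (log2 change 0.92 ± 0.12 SE, limma's adjusted p = 0.00109) and 1.84 times in the polysome pool (0.88 ± 0.12, adjusted p = 0.00444). Fbxw21 had the largest change of the cluster in the RNP pool, from 42.5, 37.4 and 34.2 in WT to 82.3, 84.7 and 79.5 in KO, and in the polysome pool it went from 120.3, 101 and 122 to 211, 224 and 243. These are ratios of 2.16 (log2 change 1.10, adjusted p = 0.000888) and 1.98 (0.98, adjusted p = 0.00528), and both rose. The lowest gene, Fbxw13, showed the same order of group means, with 9.76, 10.8 and 11.4 in WT RNP, 20.0, 17.9 and 18.7 in KO RNP, 22.7, 32.5 and 18.0 in WT polysome and 42.2, 38.9 and 44.5 in KO polysome libraries. It was called in the RNP pool (adjusted p = 0.0285) and not in the polysome pool (adjusted p = 0.0862, and 0.0436 without WT polysome replicate 2).

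Fbxw26 and Fbxw28 were the most abundant cluster genes off polysomes. Fbxw28 measured 101, 90.3 and 81.5 in WT RNP, 171, 171 and 152 in KO RNP, 162, 144 and 161 in WT polysome and 316, 243 and 240.5 in KO polysome libraries. Fbxw26 measured 84.0, 74.0 and 75.6 in WT RNP, 146, 162 and 135 in KO RNP, 78.2, 79.7 and 105 in WT polysome and 179.8, 188 and 143 in KO polysome libraries. Both rose in KO in both pools, and Fbxw26 stands out in that its pools overlapped within each genotype. The polysome call of Fbxw26 ended without KO polysome replicate 2 (adjusted p 0.0629) and with no intensity trend. Fbxw14 went from 46.8, 37.5 and 37.9 to 76.5, 75.3 and 76.8 in the RNP pool and from 154, 149.7 and 157 to 293, 258 and 281 in the polysome pool. Fbxw15 went from 62.1, 62.0 and 62.6 to 112, 113 and 104 and from 122, 107 and 112 to 202, 196 and 208 in the same comparisons, so both of these rose in either pool with little spread.

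Fbxw16 stood at 44.4, 34.7 and 37.0 in WT RNP, 73.8, 63.9 and 64.2 in KO RNP, 122, 149 and 146 in WT polysome and 224, 193 and 203 in KO polysome libraries. Fbxw19 stood at 16.96, 20.1 and 16.6 in WT RNP, 31.4, 34.6 and 38.5 in KO RNP, 89.5, 79.6 and 86.3 in WT polysome and 123, 137 and 138 in KO polysome libraries. Both were called in the polysome pool with adjusted p = 0.0352 and 0.0266, both fragile. The Fbxw16 call ended without WT polysome replicate 1 or 3 or KO polysome replicate 1, 2 or 3 (adjusted p 0.0515 to 0.110) and with no filter, quantile normalization, the replicate block or no intensity trend. The Fbxw19 call ended without WT polysome replicate 2 or KO polysome replicate 1, 2 or 3 (adjusted p 0.0535 to 0.116) and with the replicate block or no intensity trend. Fbxw27, the last gene of the row, stood at 25.7, 22.0 and 22.9 in WT RNP, 47.6, 39.6 and 41.8 in KO RNP, 24.9, 26.9 and 32.5 in WT polysome and 63.1, 56.2 and 61.8 in KO polysome libraries, and had the largest polysome change of the cluster (log2 change 1.08 ± 0.20 SE, adjusted p = 0.0125), a call that ended without KO polysome replicate 3 (adjusted p 0.0568). Fbxw18 had the smallest change of the cluster in both pools. It measured 31.6, 39.8 and 34.1 in WT RNP, 52.6, 52.7 and 51.5 in KO RNP, 109, 95.01 and 90.8 in WT polysome and 126, 146 and 151 in KO polysome libraries, ratios of 1.48 and 1.43. Fbxw20 measured 25.8, 21.1 and 26.4 in WT RNP, 38.6, 47.3 and 49.8 in KO RNP, 57.1, 34.9 and 46.3 in WT polysome and 64.6, 70.7 and 75.5 in KO polysome libraries. Fbxw22 measured 19.5, 12.1 and 18.4 in WT RNP, 33.4, 32.2 and 32.6 in KO RNP, 47.3, 49.0 and 54.3 in WT polysome and 83.5, 79.1 and 65.9 in KO polysome libraries, and both also had no overlap between genotypes. With Fbxw13 and Fbxw18 they were the 4 cluster genes not called in the polysome pool, with adjusted p between 0.0636 and 0.106, and Fbxw18 was called with libraries rescaled to the same median (adjusted p = 0.0348).

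Over the cluster, 13 of 13 genes were called higher in the RNP pool (log2 changes from 0.56 to 1.10, median 0.86) and 9 of 13 in the polysome pool (0.51 to 1.08, median 0.79). In the RNP pool 3 calls did not hold without a library: Fbxw13 was no longer called without WT RNP replicate 1 or KO RNP replicate 1, 2 or 3 (adjusted p 0.0598 to 0.118) and with the replicate block, Fbxw18 without WT RNP replicate 1 or KO RNP replicate 1, 2 or 3 (adjusted p 0.0619 to 0.0962) and with the replicate block or no intensity trend, and Fbxw22 without KO RNP replicate 1 (adjusted p 0.0539). Leaving out 1 RNP library at a time left between 10 and 13 genes called. In the polysome pool the count was 6 without KO polysome replicate 2, 6 without replicate 3 and between 7 and 9 without any other library. It also hung on how limma sets the spread: with no trend of spread on level, 1 of 13 was called in the polysome pool and 12 of 13 in the RNP pool, with the same log2 changes.

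How well reads of the 13 copies could be kept apart bears on each single value. Windows of 50 bases of each coding transcript (GENCODE M21) were looked up in the transcripts of every other gene. Shared windows made up between 5.77% (Fbxw24) and 67.6% (Fbxw14) of a cluster transcript, with a median of 10.7%, and the median was 0 in the 73 other members with a transcript. Of those others, Fbxo34 shared most (21.6%). Among windows of 150 bases, as long as a read, 11 of the 13 shared none, and Fbxw28 shared most (36.0%). The values of Fbxw14 and Fbxw28 are therefore uncertain singly. The sum of the cluster is less exposed to this.

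Genes beside the cluster were compared as neighbours, the 3 nearest protein-coding genes on each side with a mean of 1 FPKM or more. On one side Plxnb1, Tma7 and Atrip, and on the other Nme6 and Map4, were called in neither pool. Tma7, 57 kb from the cluster, nonetheless had an RNP change as large as those of the cluster. It stood at 39.2 ± 19.3 FPKM in WT and 69.5 ± 14.5 in KO RNP (SD, n = 3; log2 change 0.89, limma's adjusted p = 0.0656). In polysomes its log2 change was -0.35 (adjusted p = 0.431). Cdc25a, a phosphatase that activates cyclin-dependent kinases, was lower in the KO RNP pool (50.2 ± 7.94 FPKM in WT and 26.4 ± 2.27 in KO, SD, n = 3; log2 change -0.89, limma's adjusted p = 0.00748). None of the 6 was called higher by limma, and at an unadjusted p under 0.05 there were 1 higher for RNP (Tma7) and 1 for polysomes (Map4).

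Among 6619 genes outside the members with a mean of 5 FPKM or more, the 5 whose pattern over the 12 libraries was most like the summed cluster were Speer5-ps1, Pkm, Carhsp1, Pramef12 and Nlrp14. The libraries fall into 4 groups, so the likeness was not tested. Nlrp14, an oocyte gene of the NLR family, measured 256, 214 and 271 in WT RNP, 868, 918 and 844 in KO RNP, 2565, 2679.9 and 2475 in WT polysome and 5396, 6350.4 and 6296 in KO polysome libraries. It had the same order of groups as the cluster, but its ratios of KO to WT were larger, 3.55 for RNP and 2.34 for polysomes. Of the 5 it was the least alike (Pearson r = 0.9878). The closest, Speer5-ps1 (r = 0.9898), had group means of 285 in WT RNP, 416 in KO RNP, 474 in WT polysome and 690 in KO polysome libraries.

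Skp1a, the adaptor that joins F-box proteins to Cul1, followed the same order of groups. It measured 525, 468 and 398 FPKM in WT RNP and 804, 741 and 803 in KO RNP libraries, and 1806, 1443 and 1513 in WT and 2646, 2787 and 2713 in KO polysome libraries. No group overlapped another. Skp1a rose in KO by 1.69 times in the RNP pool (log2 change 0.76 ± 0.10 SE, limma's adjusted p = 0.00122) and 1.71 times in the polysome pool (0.78 ± 0.10, adjusted p = 0.00374). The polysome call ended without the trend of spread on level (adjusted p = 0.0908, the highest over 14 alternatives).

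The RING protein and the cullins gave no call between KO and WT. Rbx1, the RING subunit that binds the ubiquitin-conjugating enzyme, stood at 34.9, 14.0 and 38.7 in WT RNP, 29.6, 26.9 and 29.4 in KO RNP, 18.8, 11.6 and 9.36 in WT polysome and 14.6, 18.5 and 26.9 in KO polysome libraries. Its genotypes overlapped in both pools. Cul1, the scaffold of F-box ligases and the highest of the cullins, measured 95.6, 88.5 and 104 in WT RNP and 122, 123 and 106 in KO RNP libraries, and 129, 140.3 and 151 in WT and 166, 165 and 158 in KO polysomes. KO libraries were above WT libraries in each pool without overlap, but the adjusted p was 0.137 in the RNP and 0.327 in the polysome pool (log2 changes 0.28 and 0.22). Cul4b, which pairs with the adaptor Ddb1, stood at 33.1, 33.2 and 42.0 in WT RNP, 41.7, 37.7 and 36.4 in KO RNP, 28.8, 42.2 and 52.1 in WT polysome and 53.7, 48.3 and 58.7 in KO polysome libraries, below Cul1 in every library.

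The other cullins were low. Cul4a, the close relative of Cul4b, measured 3.12, 10.3 and 13.8 in WT RNP, 9.05, 7.75 and 9.58 in KO RNP, 3.17, 12.5 and 6.12 in WT polysome and 10.4, 16.8 and 18.1 in KO polysome libraries. Cul3, which uses BTB proteins as receptors, measured 2.2002, 3.27 and 6.97 in WT RNP, 6.07, 5.57 and 3.29 in KO RNP, 3.45, 2.53 and 6.21 in WT polysome and 7.19, 8.54 and 5.06 in KO polysome libraries. For both, KO and WT libraries overlapped in each pool. Cul2, which uses elongin adaptors, measured 2.60, 1.70 and 1.34 in WT RNP, 3.36, 3.44 and 5.18 in KO RNP, 0.643, 1.43 and 4.73 in WT polysome and 4.10, 7.77 and 3.33 in KO polysome libraries. Cul5, which uses them too, measured 6.21, 6.86 and 7.45 in WT RNP, 6.22, 7.51 and 6.86 in KO RNP, 10.2, 9.14 and 3.97 in WT polysome and 5.18, 6.64 and 6.998 in KO polysome libraries. Genotypes of Cul2 lay apart in the RNP pool, with KO higher, and overlapped in the polysome pool (adjusted p = 0.151 and 0.302). Cul7 was at 0.275, 0 and 0 in WT RNP, 0.773, 0.163 and 0.168 in KO RNP, 0, 0 and 0 in WT polysome and 0, 0 and 0.0371 in KO polysome libraries. Cul9 was at 0, 0 and 0.0197 in WT RNP, 0, 0.0377 and 0 in KO RNP, 0.618, 0 and 0 in WT polysome and 0.430, 0.196 and 0.0257 in KO polysome libraries. Both were below the level for a test. Of the 6 cullins tested, limma called 0 in either pool, and 1 in the RNP and 0 in the polysome pool had an unadjusted p under 0.05.

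Of the 12 members called higher in both pools, 9 were cluster genes and the others were Skp1a, Fbxo40 and Fbxo42, the last named here after its values were seen. Fbxo42 measured 29.5, 26.2 and 41.2 in WT RNP, 53.2, 60.3 and 55.8 in KO RNP, 41.9, 36.1 and 39.1 in WT polysome and 53.8, 85.4 and 69.4 in KO polysome libraries (adjusted p = 0.0156 in the RNP and 0.0494 in the polysome pool). Its polysome call ended without WT polysome replicate 1, 2 or 3 or KO polysome replicate 2 or 3 (adjusted p 0.0719 to 0.192) and with a pseudocount of 0.1, no filter, the replicate block or no intensity trend. Its RNP call ended without KO RNP replicate 2 or 3 (adjusted p 0.0512 to 0.0652) and with no intensity trend. Fbxo40, a muscle F-box protein known for the turnover of Irs1, measured 60.3, 71.0 and 64.8 in WT RNP and 111, 101 and 108 in KO RNP libraries, and 53.5, 39.4 and 58.1 in WT and 97.9, 87.1 and 137 in KO polysomes. Its genotypes lay apart in both pools, with log2 changes of 0.70 ± 0.12 SE (adjusted p = 0.00412) and 1.07 ± 0.23 (adjusted p = 0.0223). The polysome call ended without KO polysome replicate 1 or 3 (adjusted p 0.0560 to 0.0867) and with no filter or no intensity trend. Fbxo38, known for the turnover of PD-1 in T cells, measured 10.3, 2.89 and 10.9 in WT RNP, 15.0, 16.8 and 19.2 in KO RNP, 32.7, 38.1 and 33.0 in WT polysome and 70.6, 93.0 and 76.4 in KO polysome libraries. It rose in KO polysomes, by 2.31 times (log2 change 1.18 ± 0.19 SE, adjusted p = 0.00820), and its RNP libraries gave 1.15 with an adjusted p of 0.0826, and 0.0488 without WT RNP replicate 3.

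Fbxo3 and Fbxo36 were called higher in KO polysomes at lower levels. Fbxo3, which directs the turnover of Fbxl2, stood at 1.78, 2.30 and 2.33 in WT polysomes and 9.01, 10.2 and 6.66 in KO polysomes, beside 7.60, 10.4 and 7.11 in the WT and 11.3, 9.61 and 6.79 in the KO RNP pool. WT polysomes were the low group (log2 change 1.60, adjusted p = 0.0413), and the call ended without WT polysome replicate 1, 2 or 3 or KO polysome replicate 1, 2 or 3 (adjusted p 0.0615 to 0.162) and with no filter, a filter at 5 FPKM or the replicate block. Fbxo36, whose substrates are little known, stood at 8.65, 27.7 and 7.49 in WT polysomes and 46.3, 51.1 and 37.5 in KO polysomes, beside 18.8, 12.7 and 21.9 in the WT and 18.5, 26.8 and 19.9 in the KO RNP pool. KO polysomes were the high group (1.78, adjusted p = 0.0398), and the call ended without WT polysome replicate 1 or 3 or KO polysome replicate 1, 2 or 3 (adjusted p 0.0815 to 0.132) and with a pseudocount of 0.1, no filter or no intensity trend.

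**Figure D2:**
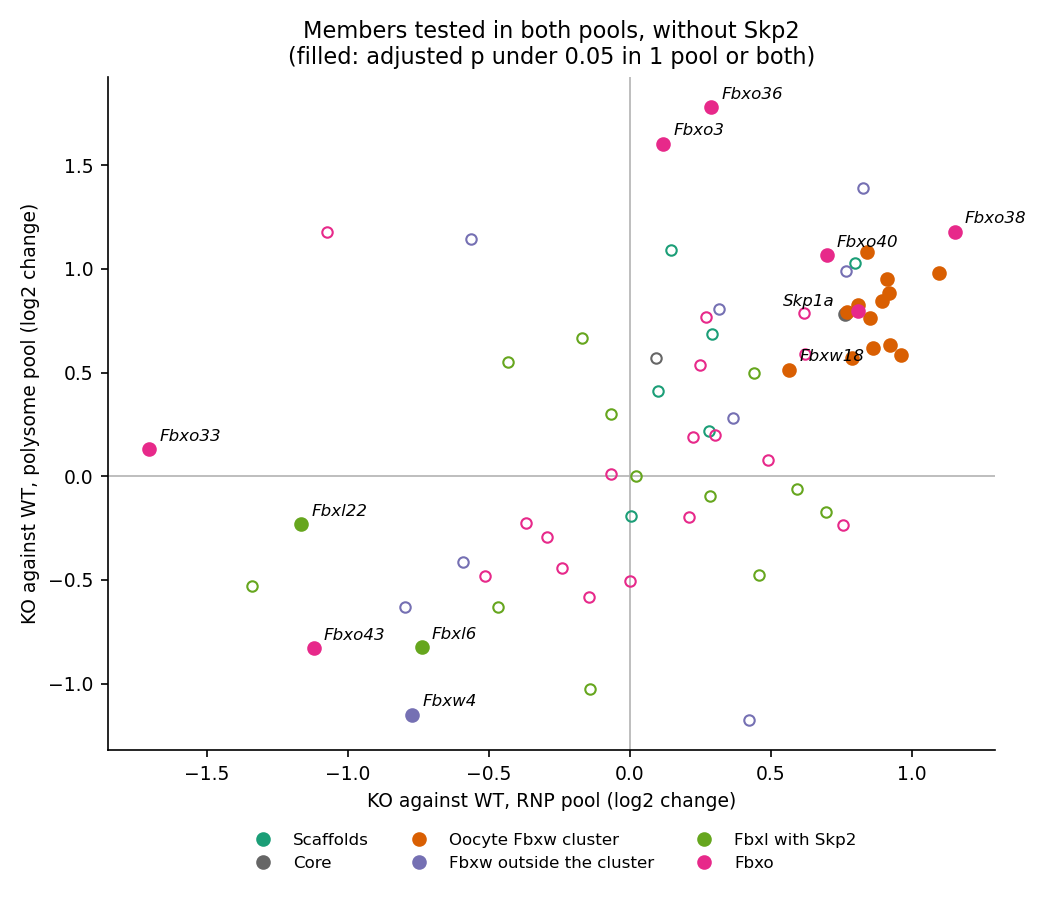
Log2 change of KO against WT in the RNP pool (x axis) and the polysome pool (y axis) for the members tested in both except Skp2, which was listed at 0 in all KO polysome libraries; colours give the role, and filled points had an adjusted p under 0.05 in 1 pool or both. The 13 cluster genes sit together between 0.51 and 1.10 on both axes. Fbxw4, Fbxo43 and Fbxl6 lie below 0 on both.

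Some members were lower in KO. Fbxo43, also called Emi2, inhibits the anaphase-promoting complex and holds eggs in the second meiotic arrest. It measured 78.1, 80.5 and 82.6 FPKM in WT RNP and 43.0, 37.3 and 30.1 in KO RNP libraries, and 44.3, 65.7 and 34.8 in WT and 25.7, 28.3 and 23.7 in KO polysomes. The KO libraries were below all WT libraries in both pools. It fell in the RNP pool (log2 change -1.12 ± 0.16 SE, limma's adjusted p = 0.00160), a call that held under all 14 alternatives, and in the polysome pool the log2 change was -0.83 with an adjusted p of 0.0828, and 0.0483 without WT polysome replicate 3. Skp2, the F-box protein that removes the kinase inhibitor p27, was listed at 0 in all 3 KO polysome libraries and at 10.1, 16.4 and 3.96 in WT polysomes (adjusted p = 0.00909). It passed the filter through the 3 WT libraries alone, the group that was higher, and with no filter the adjusted p was 0.0372. Without any 1 WT polysome library, or with a filter at 5 FPKM, it could not be tested. In the RNP pool it stood at 7.09, 2.203 and 19.9 in WT and 0.839, 2.98 and 1.59 in KO, where WT libraries were widely spread and overlapped KO (adjusted p = 0.106, and 0.0176 without WT RNP replicate 2).

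Fbxw4, known as dactylin for its part in limb outgrowth, was the member called lower in both pools. It measured 193, 194 and 169 in WT RNP and 115, 108 and 101 in KO RNP libraries, and 94.3, 89.4 and 137 in WT and 50.4, 42.3 and 48.1 in KO polysomes. No KO library reached a WT library of its pool. The log2 changes were -0.77 ± 0.11 SE (adjusted p = 0.00149) and -1.15 ± 0.21 (adjusted p = 0.0120, and 0.00775 to 0.0571 over 14 alternatives). Fbxl6, a little studied leucine-rich repeat member, measured 107, 112 and 114 in WT RNP, 55.4, 64.9 and 79.5 in KO RNP, 38.7, 46.6 and 45.1 in WT polysome and 30.9, 22.7 and 19.7 in KO polysome libraries. It fell in the RNP pool (-0.74 ± 0.15 SE, adjusted p = 0.00822), a call that ended with no intensity trend (adjusted p up to 0.0502). The polysome change of -0.82 had an adjusted p of 0.0618, and 0.0498 with a filter at 5 FPKM.

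The remaining RNP calls were lower genes. Fbxo33, known for the turnover of the RNA-binding protein YB-1, went from 20.9, 18.4 and 20.3 in WT RNP to 2.88, 10.1 and 5.06 in KO RNP libraries (log2 change -1.71, adjusted p = 0.0114). Its polysome libraries measured 12.2, 7.56 and 3.44 in WT and 6.25, 7.20 and 10.1 in KO and overlapped. Fbxl22, an F-box protein of heart muscle, went from 10.5, 6.35 and 9.29 to 4.16, 2.57 and 3.18 in the RNP pool (log2 change -1.17, adjusted p = 0.0316), and the call ended without WT RNP replicate 1 or 3 or KO RNP replicate 1, 2 or 3 (adjusted p 0.0580 to 0.109) and with no filter. In the polysome pool it stood at 4.55, 4.20 and 1.60 in WT and 2.98, 1.49 and 3.68 in KO, with overlap. The much studied Fbxw7, which targets cyclin E, and Fbxw11, a beta-TrCP protein, were called in neither pool. Fbxw7 stood at 1.63, 1.80 and 6.43 in WT RNP, 1.64, 1.41 and 1.51 in KO RNP, 0.865, 7.41 and 4.89 in WT polysome and 3.93, 1.69 and 1.95 in KO polysome libraries, low and with overlap. Fbxw11 stood at 8.94, 5.13 and 10.5 in WT RNP, 16.0, 13.7 and 14.6 in KO RNP, 25.4, 15.0 and 6.70 in WT polysome and 38.6, 31.0 and 45.2 in KO polysome libraries, with KO above WT in both pools (adjusted p = 0.0747 and 0.0743). It was called in the RNP pool without WT RNP replicate 3 (adjusted p = 0.0420) and in the polysome pool without WT polysome replicate 1 (adjusted p = 0.0297).

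**Figure D3:**
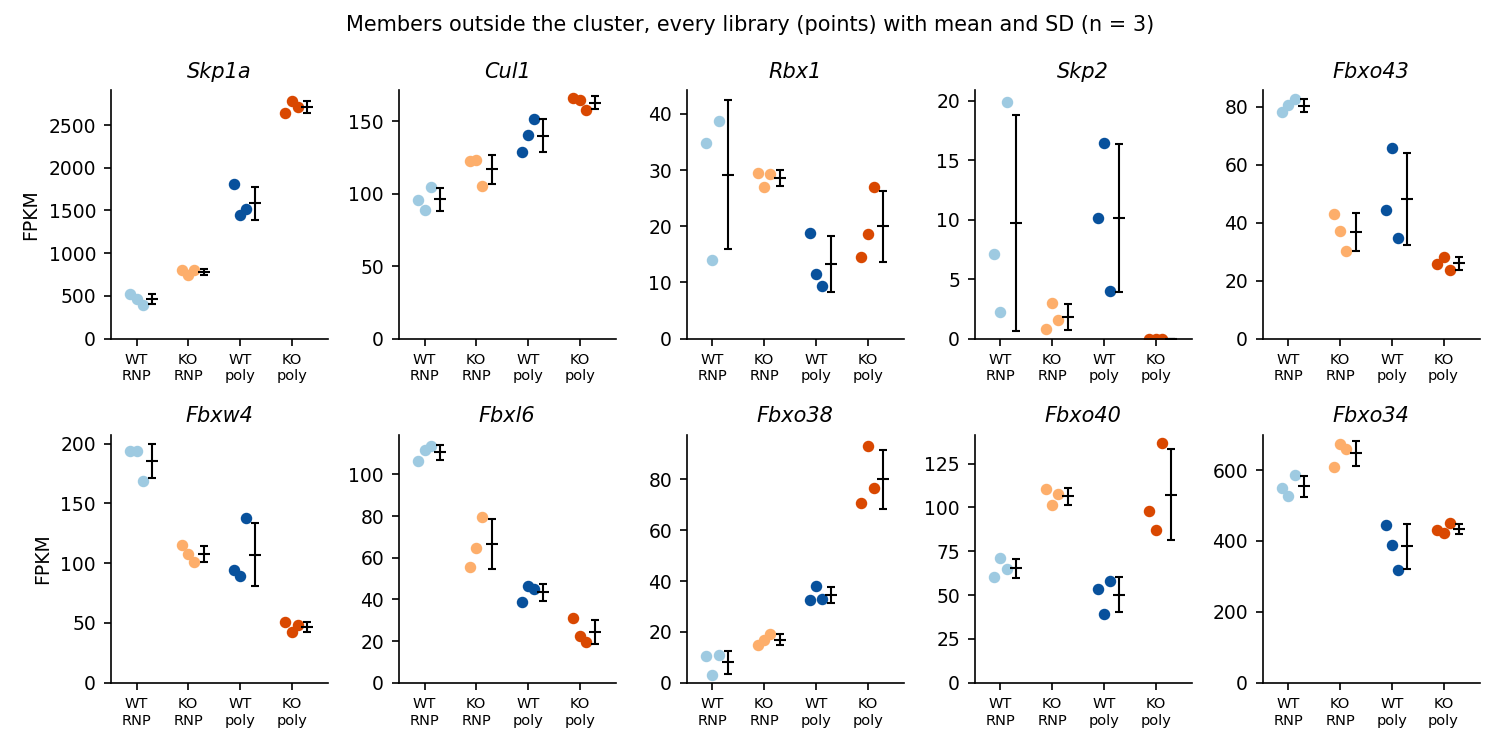
FPKM of 10 members outside the cluster in the 12 libraries, by group on the x axis (poly: polysome); points are libraries, and the bar beside them is the mean with its SD (n = 3). Skp1a is highest in KO polysomes and Fbxw4, Fbxl6 and Fbxo43 are lower in KO than in WT within each pool.

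The polysome and RNP pools were then compared within each genotype, which shows how each mRNA was divided between the pools relative to other genes. In WT oocytes 22 of 70 members tested were called (31.4%), against 14.7% of all genes. There were 17 higher in polysomes (7.97% of all genes) and 5 lower (6.72%). Without WT RNP replicate 1 or 3 it was 13 or 14 members, and without WT RNP replicate 1, 2 or 3 it was 783, 786 or 780 of all genes in place of 1406. In KO oocytes 34 of 68 were called (50%), against 29.2% of all genes, with 26 higher (15.5%) and 8 lower (13.8%). Outside the cluster the shares were nearer to those of all genes, 11 of 57 in WT (19.3%) and 22 of 55 in KO (40%). The WT and KO counts come from separate tests and are not compared with each other.

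Cluster transcripts made up a larger share of the polysome pool than of the RNP pool. The ratio of the polysome to the RNP mean of the summed cluster was 2.48 in WT and 2.33 in KO. Of the 13 genes, 11 were called higher in polysomes in WT (log2 changes of all 13 from 0.16 to 2.19, median 1.46) and 12 in KO (0.20 to 1.93, median 1.19), beside medians of -0.09 and -0.04 over all genes tested. The WT count was 7 with no intensity trend and 9 to 11 under every other alternative, and the KO count was 11 or 12 under all. The genes differed among themselves in this more than in their KO change. The ratio of means in WT ran from 1.13 (Fbxw26) to 4.76 (Fbxw19), whereas the ratio of KO to WT ran only from 1.48 to 2.16 in the RNP pool and from 1.43 to 2.15 in the polysome pool. Fbxw24, Fbxw14 and Fbxw16 stood with Fbxw19 at the upper end, at 3.95, 3.77 and 3.59. At the lower end, Fbxw26 was called in neither genotype (adjusted p = 0.597 in WT and 0.298 in KO) and Fbxw27 in KO alone, where its log2 change was 0.48 (adjusted p = 0.0293), a call that ended without KO RNP replicate 2 or 3 or KO polysome replicate 1 or 3 (adjusted p 0.0543 to 0.108) and with quantile normalization or no intensity trend. The WT call of Fbxw13 ended without WT RNP replicate 1, 2 or 3 or WT polysome replicate 1 or 2 (adjusted p 0.0838 to 0.143) and with a pseudocount of 5, no filter, the replicate block or no intensity trend. That of Fbxw20 ended without WT RNP replicate 1, 2 or 3 or WT polysome replicate 1 or 3 (adjusted p 0.0979 to 0.148) and with a pseudocount of 0.1, no filter, libraries brought to one median, quantile normalization, the replicate block or no intensity trend, and its KO call ended without KO RNP replicate 1 (adjusted p 0.0530). Fbxw26 and Fbxw27 are neighbours at one end of the row, and the promoter of Fbxw26 holds both shared stretches like those of the others shown above.

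**Figure D4:**
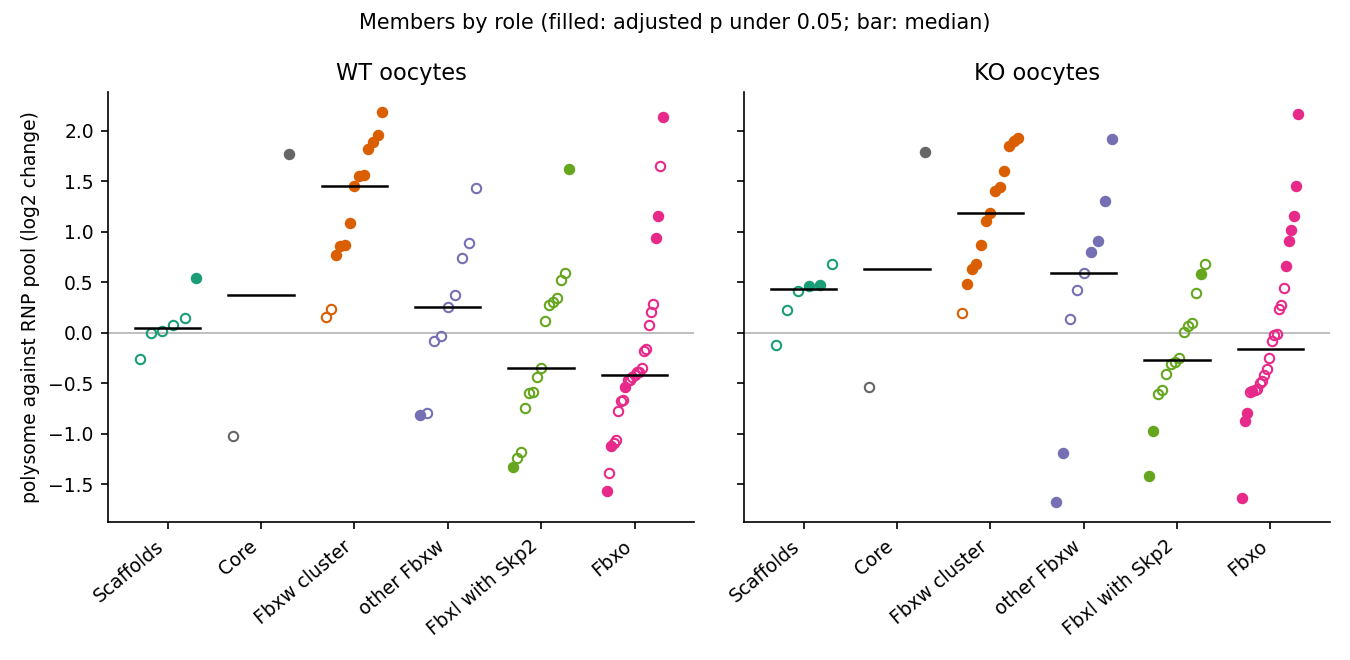
Log2 change of the polysome against the RNP pool for the members tested, by role on the x axis, in WT (left) and KO oocytes (right); each point is a gene, filled where its adjusted p was under 0.05, and bars are medians. The Fbxw cluster has the highest median in both, 1.46 and 1.19, and the medians of the Fbxo and Fbxl genes lie below 0 in both.

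Among the other members, Skp1a was polysome-rich in both genotypes, by 3.42 times in WT and 3.47 times in KO (adjusted p = 8.36e-05 and 4.61e-07). Fbxo38 had the largest difference outside the cluster toward polysomes, 4.30 times in WT and 4.70 times in KO (log2 changes 2.14 and 2.17, adjusted p = 0.0148 and 3.24e-05). Cul1 was higher in polysomes by 1.46 times in WT (adjusted p = 0.0394) and 1.39 times in KO (adjusted p = 0.00992), and the WT call ended without WT RNP replicate 1, 2 or 3 or WT polysome replicate 2 or 3 (adjusted p 0.0720 to 0.132) and with quantile normalization, the replicate block or no intensity trend. The KO call of Cul1 ended with quantile normalization or no intensity trend (adjusted p up to 0.0745). Cul4b was called higher in KO polysomes than in the KO RNP pool (0.46, adjusted p = 0.0419), which ended without KO RNP replicate 1, 2 or 3 or KO polysome replicate 1 or 3 (adjusted p 0.0639 to 0.134) and with quantile normalization, the replicate block or no intensity trend. Fbxo30, a muscle ligase known as MUSA1, measured 48.2, 59.6 and 93.8 in WT RNP, 107, 99.5 and 93.7 in KO RNP, 146, 138 and 96.7 in WT polysome and 153, 206 and 212 in KO polysome libraries. Polysomes were the higher pool in both genotypes (adjusted p = 0.0479 in WT and 0.00140 in KO), and the WT call ended without WT RNP replicate 1 or 2 or WT polysome replicate 1 or 2 (adjusted p 0.104 to 0.144) and with a pseudocount of 0.1, no filter, quantile normalization, the replicate block or no intensity trend.

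A further group lay toward the RNP pool. Fbxo34, the most abundant F-box gene, measured 549, 527 and 585 in WT RNP, 608, 673 and 659.9 in KO RNP, 446, 389 and 319 in WT polysome and 431, 421 and 450.1 in KO polysome libraries. Both genotypes had less of it in polysomes (log2 change -0.54, adjusted p = 0.0299, in WT and -0.57, adjusted p = 0.000749, in KO), and the WT call ended without WT RNP replicate 1, 2 or 3 or WT polysome replicate 2 or 3 (adjusted p 0.0526 to 0.103) and with no filter or no intensity trend. Fbxo46, also little studied, measured 94.96, 93.5 and 142 in WT RNP, 111, 106 and 107 in KO RNP, 37.0, 55.7 and 57.2 in WT polysome and 31.6, 27.1 and 46.4 in KO polysome libraries, and its polysome values were lower by log2 changes of -1.12 in WT and -1.63 in KO (adjusted p = 0.0167 and 0.00027), where the WT call ended without WT RNP replicate 3 (adjusted p 0.0611) and with no intensity trend. Fbxl6, lower in KO, was also low in polysomes, at -1.33 in WT and -1.42 in KO (adjusted p = 0.00135 and 0.000988). So was Fbxw4, at -0.81 and -1.19 (adjusted p = 0.0212 and 0.000184), and its WT call ended without WT RNP replicate 1 or 2 or WT polysome replicate 1 or 2 (adjusted p 0.0519 to 0.0740) and with no filter or no intensity trend. Fbxo3 was low in WT polysomes (-1.57, adjusted p = 0.0364), a call that ended without WT RNP replicate 1, 2 or 3 or WT polysome replicate 1, 2 or 3 (adjusted p 0.0564 to 0.137) and with no filter or the replicate block.

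Several low or middling genes were called between the pools in KO oocytes. Fbxw9 stood at 3.35, 3.23 and 5.67 in the KO RNP and 21.8, 15.5 and 16.7 in the KO polysome pool (log2 change 1.92, adjusted p = 0.00107), beside 0.991, 3.27 and 6.50 in the WT RNP and 6.21, 8.91 and 16.5 in the WT polysome pool. Fbxw11 was higher in KO polysomes than in the KO RNP pool by 2.59 times (adjusted p = 0.00110), and Fbxo36 by 2.07 times (adjusted p = 0.00464). In the other direction, Fbxw10 stood at 2.87, 3.94 and 3.09 in the KO RNP and 0, 0.125 and 1.12 in the KO polysome pool (adjusted p = 0.0142, a call that ended without KO RNP replicate 2 with adjusted p 0.0649), beside 1.79, 1.49 and 3.68 in the WT RNP and 0, 2.41 and 7.02 in the WT polysome pool. Fbxl20, a synaptic F-box protein, measured 14.2, 16.2 and 20.0 in WT RNP, 21.3, 18.2 and 22.1 in KO RNP, 9.31, 13.2 and 9.95 in WT polysome and 7.99, 10.5 and 11.7 in KO polysome libraries. Fbxo28, which modifies MYC, measured 60.1, 73.8 and 64.8 in WT RNP, 45.9, 59.3 and 63.7 in KO RNP, 44.6, 44.4 and 34.9 in WT polysome and 24.7, 28.9 and 37.5 in KO polysome libraries. Both genes were lower in polysomes without overlap in KO (adjusted p = 0.0105 and 0.00986) and also in WT, where neither was called (adjusted p = 0.252 and 0.0510). Fbxo28 was called in WT with a pseudocount of 5, a filter at 5 FPKM, rescaling to the same median and quantile normalization (adjusted p = 0.0491, 0.0406, 0.0429 and 0.0368).

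Whether KO altered the balance between pools was tested in 1 fit of the 12 libraries, through the interaction term between genotype and pool. Limma called 0 of 71 members, against 0.237% of all genes (26 of 10949), and 4 members had an unadjusted p under 0.05. The lowest adjusted p was 0.203, for Fbxw8. In the cluster the change of the polysome-to-RNP ratio had a median of -0.05 and ran from -0.37 to 0.24, beside a median of 0.04 over all genes tested, and 0 of 13 had an unadjusted p under 0.05. The outermost bounds of the 95% intervals of the 13 genes were -0.96 and 0.76 on the log2 scale. For Skp1a the change was 0.02 ± 0.15 SE (adjusted p = 0.981). Leaving out WT polysome replicate 2 gave 1 member called, Fbxo36 (adjusted p = 0.0469), in place of 0. The 26 of all genes also rested on single libraries: without RNP replicates the count was 2 (WT 2), 3 (WT 3), 3 (KO 1), 0 (KO 2) and 1 (KO 3), and without polysome replicates it was 46 (WT 3), 10 (KO 2) and 15 (KO 3).

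Partners of cullin ligases were taken from lists of the pathway. The cycle of Nedd8, a small protein whose attachment switches cullins on, held 11 genes. Limma called 0 of 11 in the polysome pool, where 4 had an unadjusted p under 0.05, and in the RNP pool 1 was higher and 1 lower (10.4% of all genes were called in polysomes and 20.7% in the RNP pool). The polysome count was 2 without WT polysome replicate 1 and 1 without KO polysome replicate 2, and the RNP count 1 without WT RNP replicate 1, 2 or 3 or KO RNP replicate 1 or 3. The lower was Uba3, the catalytic subunit of the Nedd8-activating enzyme, at 17.8, 26.5 and 29.6 in WT RNP and 5.63, 9.56 and 8.08 in KO RNP libraries (adjusted p = 0.00517). Its polysome libraries measured 33.4, 35.2 and 21.3 in WT and 5.40, 17.9 and 10.6 in KO (adjusted p = 0.0667), so KO was the lower genotype in both pools. The higher was Dcun1d4, a cofactor of the same reaction, at 4.84, 3.95 and 3.74 in WT and 10.1, 8.37 and 8.09 in KO RNP libraries (adjusted p = 0.0452), a call that ended without WT RNP replicate 1, 2 or 3 or KO RNP replicate 1, 2 or 3 (adjusted p 0.0532 to 0.170) and with no filter or the replicate block. The median log2 change of the list was 0.26 in the RNP and 0.21 in the polysome pool, beside the 0.05 and 0.10 of all genes tested.

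Removal of Nedd8 and exchange of receptors are the work of the COP9 signalosome, Cand proteins and Senp8. Of 11 tested among these 12 genes, 1 was higher and 1 lower in the polysome pool, and 3 were higher and 1 lower in the RNP pool (medians 0.28 and 0.40). Over all genes tested 10.4% and 20.7% were called. The polysome count was 1 without KO polysome replicate 2 or 3, and the RNP count 2 without WT RNP replicate 2 or 3 or KO RNP replicate 2 and 1 without KO RNP replicate 1 or 3. Senp8, a protease that matures Nedd8 and removes it, measured 104, 118 and 88.0 in WT RNP, 35.0, 33.5 and 40.8 in KO RNP, 114, 93.0 and 104 in WT polysome and 17.5, 29.7 and 30.1 in KO polysome libraries. It fell in both pools, with log2 changes of -1.48 ± 0.16 SE (adjusted p = 0.000355) and -2.00 ± 0.24 (adjusted p = 0.00311), larger than those of Fbxo43 or Fbxw4. Cops8, a signalosome subunit, rose from 149.8, 154 and 182 to 220.0, 188 and 228 in the RNP pool and from 364, 344 and 354 to 479, 559.6 and 521 in the polysome pool (adjusted p = 0.0444 and 0.0149). The RNP call of Cops8 ended without WT RNP replicate 1 or 2 or KO RNP replicate 1 or 3 (adjusted p 0.0935 to 0.151) and with a pseudocount of 0.1, no filter, quantile normalization or no intensity trend. Its polysome call ended without KO polysome replicate 2 or 3 (adjusted p 0.0643 to 0.0795) and with no intensity trend. Another subunit, Cops3, rose in the RNP pool from 13.3, 14.8 and 7.37 to 22.7, 22.4 and 20.5 (adjusted p = 0.0477), a call that ended without WT RNP replicate 1 or 3 or KO RNP replicate 1, 2 or 3 (adjusted p 0.0589 to 0.138) and with a pseudocount of 0.1, no filter, the replicate block or no intensity trend.

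Of the 6 conjugating enzymes that work with cullins, 3 were higher in the KO RNP pool and 1 in KO polysomes (medians 0.64 and 0.27), where 10.5% and 5.64% of all genes tested were called higher. The RNP count was 1 without KO RNP replicate 1, 2 or 3, and the polysome count 0 without WT polysome replicate 3 or KO polysome replicate 2 or 3. Ube2d3, by far the most abundant, measured 429, 465 and 428 in WT RNP, 753, 834 and 774 in KO RNP, 1569, 1422 and 1262 in WT polysome and 1823, 2490.2 and 2435 in KO polysome libraries. It had the order of groups seen for Skp1a and the Fbxw cluster, with adjusted p = 0.000141 and 0.0215 for KO against WT in the RNP and polysome pools, and its polysome call ended without WT polysome replicate 3 or KO polysome replicate 2 or 3 (adjusted p 0.0523 to 0.0841) and with no filter or no intensity trend. Its relative Ube2d1 rose in the RNP pool, from 15.8, 6.86 and 7.76 to 23.0, 26.9 and 21.3 (adjusted p = 0.0203), a call that ended without KO RNP replicate 1, 2 or 3 (adjusted p 0.0504 to 0.0813) and with no filter. The 4 F-box genes with other names (Btrc, Ccnf, Kdm2a and Kdm2b) had 0 calls by limma in either pool, and 0 in the polysome and 0 in the RNP pool had an unadjusted p under 0.05 (medians 0.39 and 0.07). Of 7 adaptors and receptors of other cullins tested, limma called 0 in the polysome pool (2 at an unadjusted p under 0.05) and 1 in the RNP pool, Crbn, the Cul4 receptor cereblon, which rose from 17.3, 24.4 and 16.8 to 34.2, 29.1 and 32.6 (adjusted p = 0.0378). The call of Crbn ended without WT RNP replicate 1 or 3 or KO RNP replicate 1, 2 or 3 (adjusted p 0.0774 to 0.136) and with no filter, the replicate block or no intensity trend, and the polysome count was 1 without WT polysome replicate 3. The medians were 0.26 and 0.11, and 10.4% and 20.7% of all genes were called. For the polysome-to-RNP ratio limma called 0 genes of these and of the marker lists, and 8 had an unadjusted p under 0.05.

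For scale, the oocyte markers had 5 genes higher and 1 lower of 10 in the RNP pool and 2 higher and 1 lower in the polysome pool, with medians of 0.46 and 0.50, where 20.7% and 10.4% of all genes tested were called. The polysome count was 1 without WT polysome replicate 1 or KO polysome replicate 1 or 3 and 0 without KO polysome replicate 2 in place of 3. Dazl, an RNA-binding protein of germ cells, was the one lower, at 93.3, 100.4 and 87.7 in WT RNP and 30.8, 33.4 and 27.9 in KO RNP libraries (adjusted p = 0.000141) and 48.2, 92.0 and 40.3 in WT and 18.3, 10.8 and 19.2 in KO polysomes (adjusted p = 0.0174). The polysome call of Dazl ended without KO polysome replicate 2 (adjusted p 0.0573) and with no filter or no intensity trend. Among called genes the largest rises were in Figla, a transcription factor of oocytes, in the RNP pool (14.0, 6.58 and 10.1 to 26.8, 22.1 and 26.1, adjusted p = 0.0123) and in the zona pellucida gene Zp2 in polysomes (35.2, 39.1 and 50.2 to 96.2, 71.5 and 78.9, adjusted p = 0.0219). The Figla call ended without KO RNP replicate 1 (adjusted p 0.0514). The Zp2 call ended without WT polysome replicate 1 or KO polysome replicate 1, 2 or 3 (adjusted p 0.0502 to 0.0828) and with no intensity trend. The granulosa gene Inha stood at 0, 0.240 and 0 in WT RNP, 11.0, 6.03 and 3.80 in KO RNP, 9.58, 0 and 8.11 in WT polysome and 51.4, 39.4 and 39.5 in KO polysome libraries, and was called higher in KO in both pools (adjusted p = 0.00238 and 0.0364). In the RNP pool it passed the filter through the 3 KO libraries alone, and the adjusted p with no filter was 0.0130. The polysome call of Inha ended without KO polysome replicate 1, 2 or 3 (adjusted p 0.0962 to 0.107) and with a pseudocount of 0.1, no filter or no intensity trend.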

How the data were processed

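The 12 libraries were Smart-seq2 libraries of RNP and polysome pools from WT and Lsm14b-KO oocytes, 3 per pool and genotype. The values are the FPKM deposited by the authors: reads were trimmed and aligned to mm10 with TopHat2 2.0.13, and FPKM per gene were made with Cufflinks 2.2.1 (Cuffnorm and Cuffdiff are also named). The annotation release is not stated. The library kit differs between sources. The table's 54 columns of the authors' own comparisons were not used.

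FPKM were taken as log2(FPKM + 1) and tested with limma 3.58.1 (R 4.3.3), with an intensity trend, on genes at 1 FPKM or more in at least 3 libraries of a comparison. P-values are two-sided and were adjusted by Benjamini-Hochberg over all genes tested, with a threshold of 0.05. The 5 comparisons were KO against WT in each pool, their difference (the polysome-to-RNP ratio, over 12 libraries), and polysome against RNP within each genotype. The fit was tested on simulated data. No counts are given, so depth is known only relative to WT RNP replicate 1, from steps between values under 0.3 FPKM, and no counting intervals are given. A gene listed at 0 may also be a failed estimate.

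The members and lists were chosen with earlier results of these data known. Members named with values in every library are the cullins, Skp1a, Rbx1, Skp2, Fbxw7, Fbxw11 and Fbxo43; the Fbxw cluster; the 10 highest by mean; and in each comparison all called members where 10 or fewer, otherwise the 6 with the largest change in each direction. From each list, the called gene with the largest change in each direction is named. Alternatives were a pseudocount of 0.1 or 5, no filter or 5 FPKM, libraries rescaled to 1 median, quantile normalization, a block for replicate number, a fit lacking the intensity trend, and each library left out in turn. The called genes of the lists, and Fbxo42, Fbxw8 and Fbxl17, were put through the same alternatives, a choice made after the data were seen. Positions and promoters are from RefSeq and transcripts from GENCODE M21, aligned with Biopython 1.88. Python 3.11.15, pandas 2.3.3, numpy 2.4.6, scipy 1.17.1 and matplotlib 3.10.9 were used.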

Additional observations from a re-analysis of the deposited data

Results flagged for a closer look

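In 2 of the members tested, chosen after their values were seen, a contrast went in opposite directions in the groups compared, with no overlap of libraries on either side. Fbxo47, which was too low for a test, also did so, with no library above 1.03 FPKM. Fbxw8, an F-box protein that pairs with Cul7, had log2 changes for KO against WT of 1.14 (polysomes) and -0.56 (RNP), and neither was called (adjusted p = 0.132 and 0.155). Seen the other way, the change of polysomes against the RNP pool was -0.80 in WT, also not called (adjusted p = 0.241), and 0.91 in KO, which was called (adjusted p = 0.0414). The KO call ended without KO RNP replicate 1, 2 or 3 or KO polysome replicate 2 or 3 (adjusted p 0.0597 to 0.130) and with no filter, the replicate block or no intensity trend. The difference was tested through the interaction term between genotype and pool: it was 1.71 ± 0.50 (SE) with limma's adjusted p = 0.203, which missed the threshold. Fbxl17, an F-box protein that checks pairing of BTB proteins, had a change of polysomes against the RNP pool of 0.59 in WT and -0.29 in KO, and neither was called (adjusted p = 0.360 and 0.534). Its interaction was -0.88 with an adjusted p of 0.494, which also missed the threshold. The causes were not tested.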

How the results depend on the processing

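Of the members called between KO and WT, Fbxo38 in the polysome pool, and Skp1a, Fbxo43, Fbxw4, Fbxo40, Fbxo33 and Fbxw14, 15, 16, 19, 20, 21, 24, 26, 27 and 28 in the RNP pool, kept their call under all 14 alternatives. Skp2 kept its polysome call under 10, and the other 4 (each WT polysome library left out, and 5 FPKM) gave no test, so its hold on WT libraries was not tried. No named member reversed under any. Over the values of named members under alternatives, calls were lost in 46 of 549 in the polysome pool, 19 of 555 in the RNP pool, 0 of 797 for the ratio, 62 of 556 between WT pools and 18 of 542 between KO pools, and gained in 5, 7, 1, 9 and 2. These totals leave out Fbxo42, Fbxw8 and Fbxl17. Fbxo42 lost its call under 9 of 14 alternatives in the polysome pool and 3 of 14 in the RNP pool. Fbxw8 lost its call between KO pools under 8 of 14.

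Counts over all members or all genes that moved by more than 1.5 times follow. In the KO and WT polysome comparison, 545 of all genes were called with no filter and 508 with no intensity trend, and 4 members with no trend. For the ratio, 1 member was called with no filter (Fbxo47), and 11 and 6 of all genes with the replicate block and with no trend. Between WT pools, 14 members were called with no filter and 12 with no trend, and 728 of all genes with no trend, where 7 of the 13 cluster genes were called in place of 11. Leaving out 1 library at a time gave 10 to 14 members and 383 to 790 of all genes in the polysome pool, 17 to 26 and 1255 to 1911 in the RNP pool, 0 to 1 and 0 to 46 for the ratio, 13 to 17 and 780 to 1212 between WT pools, and 25 to 32 and 2030 to 2909 between KO pools. With a library left out fewer samples enter, and the cause of the other shifts was not tested. Deviations of same-numbered libraries from their group means had r from -0.021 to 0.026 over 10949 genes, so no pairing of replicate numbers was seen. These values cannot show that pairing was absent. The RNP and polysome pools of a lysate come from the same gradient, and the main fits took all libraries as separate.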
